A study of Mus musculus with 2 samples.

Results

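Intergenic DNase I hypersensitive sites that lie 5 to 50 kb from a protein-coding gene were described in the right cerebral cortex of the mouse. A site was taken when a peak of replicate 1, in the smaller and stricter of the 2 deposited peak sets, overlapped a strict peak of replicate 2 by at least 1 bp. Its centre had to lie outside every gene of any type in GENCODE M21, over 1000 bp from every transcript start, and 5000 to 50000 bp from the nearest protein-coding transcript start. This gave 7654 sites of 60789 peaks shared by the libraries (12.6%, exact 95% interval 12.3 to 12.9). They covered 1.65 Mb. Because a long peak of 1 library can meet several of the other, the 7654 sites matched 7545 peaks of replicate 2, and 120 sites overlapped another site of the set.

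The tissue came from male mice of the strain B6CASTF1/J, 2 months old, whose parents are C57BL/6J and CAST/EiJ. They form 1 group of 2 libraries, biological replicate 1 from the animal numbered 5 and replicate 2 from the animal numbered 6, with no treatment named. Both libraries carry 1 donor record in the labels, and only the animal numbers set them apart. Without a second group there was no contrast to test, and values are given per library or as mean ± SD (n = 2).

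DNase I cuts DNA where nucleosomes are displaced, and such places include promoters, enhancers, insulators and the promoters of small RNA genes. Distal sites matter in brain tissue because enhancers far from the start drive much of the expression that differs between cell types and much of the response to neuronal activity. Within an accessible site a bound protein shields a few bases from cleavage, and such a protected stretch is a footprint. Insulator sites are bound by CTCF, a zinc finger protein that with cohesin sets the ends of chromatin loops.

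The sequences that the results below turn on are printed here from the reference genome (mm10), 5′ to 3′. The first are the 5 tallest sites with a CTCF consensus, shown because CTCF was the consensus most concentrated in the set relative to the genome and, a single REST match aside, the most often footprinted. Capitals mark the 12 bases that match, each line is turned so that the match reads forward, and the name is that of the nearest coding gene.
Stard10, chr7:101310770-101310821, plus strand: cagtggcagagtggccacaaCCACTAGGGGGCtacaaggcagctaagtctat
Ppp1r1b, chr11:98342767-98342818, plus strand: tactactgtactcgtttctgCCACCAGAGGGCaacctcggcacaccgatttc
Coro2b, chr9:62549993-62550044, minus strand: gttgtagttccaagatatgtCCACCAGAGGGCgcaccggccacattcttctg
Fnbp1l, chr3:122638792-122638843, minus strand: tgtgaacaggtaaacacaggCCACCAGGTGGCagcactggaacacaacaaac
Znfx1, chr2:167072150-167072201, plus strand: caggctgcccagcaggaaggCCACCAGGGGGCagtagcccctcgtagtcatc
In replicate 1 all 12 matched bases lay in a footprint at each of these 5 sites, and in replicate 2 all 12 did at 4 of them and 11 at the Stard10 site.

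The next lines hold the tallest site for each of 5 other consensus sequences, again with the match in capitals. They are the sites for nuclear factor I (NFI), the proneural E-box CAGATGG read by factors such as NEUROD2, RFX, the nuclear respiratory factor NRF1 (GCGCATGCG) and the cyclic AMP response element (CRE, TGACGTCA).
NFI near Tarbp1, chr8:126517351-126517405, plus strand: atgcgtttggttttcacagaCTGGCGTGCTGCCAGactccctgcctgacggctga
E-box near Nanog, chr6:122669610-122669656, plus strand: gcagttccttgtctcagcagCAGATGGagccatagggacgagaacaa
RFX near Gng2, chr14:19987182-19987235, plus strand: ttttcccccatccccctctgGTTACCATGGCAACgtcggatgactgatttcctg
NRF1 near Lrp3, chr7:35234914-35234962, plus strand: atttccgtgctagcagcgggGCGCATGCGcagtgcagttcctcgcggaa
CRE near Tex44, chr1:86434541-86434588, plus strand: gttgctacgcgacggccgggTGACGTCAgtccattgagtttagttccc
All matched bases of these 5 lay in footprints of both libraries.

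The following 3 lines are tRNA genes that lie under sites near Trim27, Olfr1423 and Hfe2, shown because places with many sites held several tRNA genes. Capitals mark GTTCNANNC, a form of the B box, the internal promoter element at which the polymerase III factor TFIIIC binds.
tRNA-Leu near Trim27, chr13:21200204-21200308, plus strand: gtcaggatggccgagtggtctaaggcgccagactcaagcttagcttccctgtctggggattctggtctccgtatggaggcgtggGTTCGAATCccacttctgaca
tRNA-Lys near Olfr1423, chr19:12006039-12006111, plus strand: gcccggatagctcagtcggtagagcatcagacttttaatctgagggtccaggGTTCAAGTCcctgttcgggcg
tRNA-His near Hfe2, chr3:96500366-96500437, minus strand: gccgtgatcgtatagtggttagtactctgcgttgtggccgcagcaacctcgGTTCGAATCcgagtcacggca

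The last lines show up to 300 bases of 6 sites, chosen by mean height of the libraries. They are the tallest of all single-copy sites (Ptma) and the tallest near 5 genes of the activity, clock and cell type lists. All are on the plus strand, and capitals mark bases that lay in footprints of both libraries.
Ptma, chr1:86487461-86487760, plus strand: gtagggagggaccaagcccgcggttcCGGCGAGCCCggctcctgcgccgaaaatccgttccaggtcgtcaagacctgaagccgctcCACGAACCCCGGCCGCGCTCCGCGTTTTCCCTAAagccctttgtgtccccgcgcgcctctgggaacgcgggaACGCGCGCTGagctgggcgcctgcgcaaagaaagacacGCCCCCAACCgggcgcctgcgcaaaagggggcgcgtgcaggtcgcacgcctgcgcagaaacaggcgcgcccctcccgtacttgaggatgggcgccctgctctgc
Fos, chr12:85455201-85455500, plus strand: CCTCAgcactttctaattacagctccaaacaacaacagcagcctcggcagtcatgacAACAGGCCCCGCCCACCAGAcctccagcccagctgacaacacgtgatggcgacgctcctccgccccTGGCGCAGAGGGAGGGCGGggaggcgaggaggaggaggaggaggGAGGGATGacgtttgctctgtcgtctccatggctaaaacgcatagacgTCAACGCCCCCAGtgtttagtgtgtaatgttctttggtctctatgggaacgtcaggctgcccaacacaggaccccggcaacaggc
Npas4, chr19:5001801-5002080, plus strand: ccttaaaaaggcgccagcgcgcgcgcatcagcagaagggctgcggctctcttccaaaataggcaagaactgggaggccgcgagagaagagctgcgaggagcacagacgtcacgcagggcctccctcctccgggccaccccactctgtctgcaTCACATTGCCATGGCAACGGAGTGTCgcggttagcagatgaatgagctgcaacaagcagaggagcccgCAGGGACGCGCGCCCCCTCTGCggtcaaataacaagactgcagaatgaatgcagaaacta
Nr1d1, chr11:98783381-98783600, plus strand: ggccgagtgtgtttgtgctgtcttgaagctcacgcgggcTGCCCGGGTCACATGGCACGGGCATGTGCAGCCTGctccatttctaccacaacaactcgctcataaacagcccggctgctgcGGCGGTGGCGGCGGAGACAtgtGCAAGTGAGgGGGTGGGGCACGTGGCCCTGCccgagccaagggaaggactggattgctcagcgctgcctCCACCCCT
Mog, chr17:37028641-37028840, plus strand: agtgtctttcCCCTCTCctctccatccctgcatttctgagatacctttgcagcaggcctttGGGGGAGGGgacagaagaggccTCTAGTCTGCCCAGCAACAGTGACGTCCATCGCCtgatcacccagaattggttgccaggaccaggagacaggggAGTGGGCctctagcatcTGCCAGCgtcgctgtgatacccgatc
Sst, chr16:23898961-23899160, plus strand: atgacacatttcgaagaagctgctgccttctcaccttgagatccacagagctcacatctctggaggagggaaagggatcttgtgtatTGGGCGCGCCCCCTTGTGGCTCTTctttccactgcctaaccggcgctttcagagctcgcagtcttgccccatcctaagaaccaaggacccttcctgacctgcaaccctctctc
Bases protected in both libraries numbered 92 of 220 at the Nr1d1 site and 24 of 200 at the Sst site. The Nr1d1 site carried the E-box CACGTG, the element of the clock activators CLOCK and BMAL1, inside such a stretch.

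Replicate 1 had 91818 strict peaks and replicate 2 had 75245. The height of a peak is the authors' value in a unit whose scaling is not stated, and sequencing depth, not given in the sources used here, is unknown, so heights are read within a library. Of 16 pan-neuronal and synaptic genes 16 and 15 had a promoter peak (a strict peak centred within 1000 bp of a start) in replicates 1 and 2. The counts were 1 and 0 of 14 for liver genes and 0 and 0 of 15 for Hox genes. Other lists foreign to cortex were not as empty, with 6 and 4 of 14 striated muscle genes, 2 and 2 of 14 lymphoid genes and 2 and 2 of 12 germ cell genes. In whole tissue, a site open in fewer cells and a site less open in each cell cannot be told apart.

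The sites were of middle height among shared peaks. Their median height was 1.23 in replicate 1 and 0.937 in replicate 2 (1.08 ± 0.207, SD, n = 2). Promoter peaks were taller in both libraries at 1.94 and 1.31, and so were intergenic peaks under 5 kb at 1.46 and 1.02. Peaks within genes were lower at 1.10 and 0.860, and intergenic peaks over 50 kb from a coding start lower again at 0.801 and 0.691. In both libraries the order of these 5 classes was the same, but the SD between libraries (0.207 for the sites, 0.443 for promoters) was larger than the step from sites to peaks within genes, so that step is read only inside a library. The 10th and 90th percentiles were 0.551 and 2.87 in replicate 1 and 0.476 and 1.83 in replicate 2. Across the set the tallest and lowest heights were 26.0 and 0.106 in replicate 1 and 22.9 and 0.123 in replicate 2.

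Heights followed each other between the libraries. Across the 7654 sites Spearman's rho was 0.880, a description over sites that share 2 libraries, against 0.965 for promoter peaks, 0.897 for intergenic peaks under 5 kb, 0.847 within genes and 0.828 beyond 50 kb. Replicate 1 was higher at 84.3% of the sites, with a median ratio of 1.36. Only 2.42% of the sites lay more than 2-fold from the median ratio of all shared peaks. The plot of heights in the 2 libraries shows this band and the few points outside it. Selection asked for a peak in both libraries, so peaks found in only 1 are missing from these values. Of all strict peaks in the same location class, 67.4% in replicate 1 and 83.0% in replicate 2 overlapped one of the other library. Those that did not were low, with medians of 0.588 and 0.491.

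**Figure D1:**
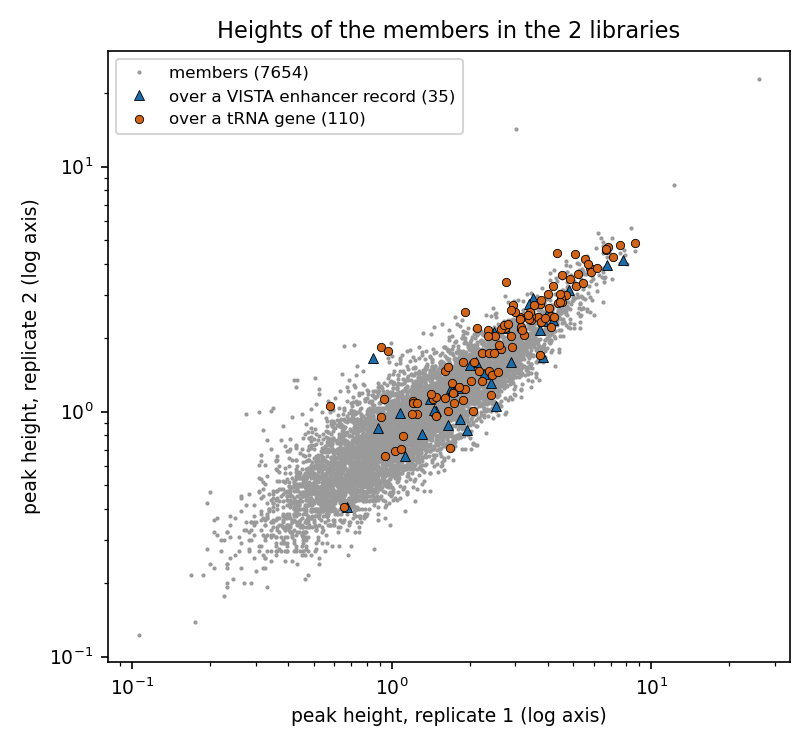
Peak height of each of the 7654 sites in replicate 1 (x, log axis) and replicate 2 (y, log axis), with the 110 sites over a tRNA gene as circles and the 35 over a VISTA enhancer record as triangles. The tRNA gene sites lie mainly in the upper part of the band, with medians of 2.78 and 2.18, and 3 isolated points at the top are sequences with several copies in the assembly.

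The largest departures from the band were at 3 sites higher in replicate 2. The one nearest to Pak3, a kinase gene on X, stood at 3.02 in replicate 1 and 14.3 in replicate 2, and its sequence had 2 copies in the assembly. The others were small peaks of 108 and 57 bp near Itpripl1 (0.275 and 0.975) and Ccr1l1 (0.307 and 0.998). In the other direction the ratio reached 3.10 near Zfp825 (0.857 and 0.276) and 2.93 near Zbtb24 (1.40 and 0.476), at sequences with 2 and 3 copies. It was 2.92 near Tomm5 (2.13 and 0.730), a single-copy site with a CTCF consensus. Of all sites, 98.6% were single copy by words of 31 bases.

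By mean height, 3 sites with several copies exceeded every single-copy site, near Igf2bp3 (26.0 and 22.9, 4 copies), Gm21887 on X (12.3 and 8.44, 3 copies) and Pak3. The tallest single-copy site lay 39115 bp upstream of Ptma, the prothymosin alpha gene, on chromosome 1 from 86487441 to 86487780. It stood at 8.40 in replicate 1 and 5.61 in replicate 2 (7.01 ± 1.98, SD, n = 2), with 9 and 7 footprints. Next came sites upstream of Pum2, an RNA-binding translational repressor gene (8.76 and 4.88), and Lrp3, a lipoprotein receptor family gene (8.67 and 4.90). Replicate 1 placed the Pum2 site first and replicate 2 the Ptma site, so the order among these does not hold between libraries.

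Several of the tallest sites were not plain distal elements by other annotation. The Lrp3 site lay over a tRNA-Thr gene and 47 bp from a RefSeq transcript start. The sites near 1810010H24Rik (7.60 and 4.77) and Shf (6.81 and 4.71) lay over tRNA-Arg and tRNA-His genes. The site near Bhlhe41, a clock-linked repressor gene, overlapped an element in the VISTA collection, whose elements are tested for enhancer activity in transgenic mouse embryos (mm1548, 7.78 and 4.15). The other sites named among the tallest, near Ptma, Pum2, Tex44, Nanog, Stard10, Otud3, Tarbp1, Ppp1r1b, Pxylp1 and Irf2bpl, overlapped neither kind of record. The Ptma site was rich in CpG, with 69.4% GC and a ratio of observed to expected CpG of 1.03.

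In base composition the set was far from promoters and close to peaks within genes. Its median GC content was 50.5% and its median ratio of observed to expected CpG 0.287. The values were 61.9% and 0.742 for promoter peaks, 50.4% and 0.264 within genes and 48.0% and 0.250 beyond 50 kb. Sites with over 55% GC and a CpG ratio over 0.6 numbered 353 (4.61%). The shares were 60.5% of promoter peaks, 9.95% of intergenic peaks under 5 kb, 3.67% within genes and 1.77% beyond 50 kb. The 353 CpG-rich sites were taller, with medians of 2.22 and 1.46 against 1.21 and 0.921 for the rest. Of them 16.4% lay within 1000 bp of a RefSeq transcript start, against 4.27% of the rest. The median width was 200 bp, as it was within genes and beyond 50 kb. A median of 3.32% of a site's bases was repeat-masked, and 47.5% of the sites had no repeat at all.

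The density of sites changed little between 5 and 50 kb. Eligible DNA, meaning assembled sequence that meets the same distance rule, came to 384 Mb and held 19.9 sites per Mb. All strict peaks of a library in the same DNA came to 29.6 per Mb in replicate 1 and 23.9 in replicate 2. From the nearest to the farthest distance band the density of sites was 20, 19.9, 20.6, 19.9 and 18.9 per Mb, a range smaller than the gap between the libraries. Of the sites 64.8% lay upstream of their nearest coding start (exact interval 63.7 to 65.8), and 67.1% of the eligible DNA did. Downstream DNA had 21.3 sites per Mb and upstream DNA 19.2, and the order was the same for the peaks of replicate 1 (31.3 and 28.7) and replicate 2 (25.1 and 23.4).

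Height fell with distance in both libraries. The median went from 1.36 at 5 to 10 kb to 1.05 at 40 to 50 kb in replicate 1, and from 0.998 to 0.845 in replicate 2. The share of sites with a CTCF consensus was 15.6% in the nearest band, 17.2% at 10 to 20 kb and 10.4% in the farthest. Downstream sites held the consensus more often than upstream ones, at 17.1% and 13.2%. At the limits of the range median heights did not jump. The medians were 1.48 and 1.01 for 145 peaks just under 5 kb and 1.52 and 1.03 for 146 just over it. They were 1.11 and 0.868 for 143 peaks just under 50 kb and 1.06 and 0.829 for 158 just over it.

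**Figure D2:**
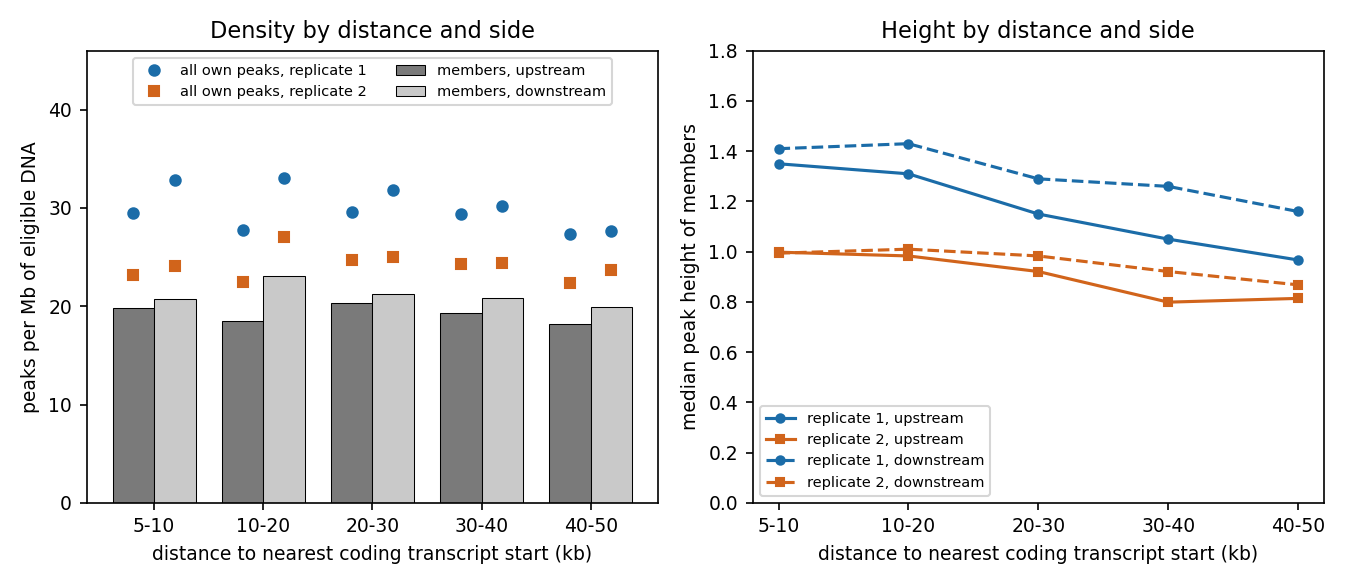
Left, sites per Mb of eligible DNA (bars, upstream dark and downstream light) by distance to the nearest coding start in kb, with all own strict peaks of replicate 1 (circles) and replicate 2 (squares); right, median height of the sites in each library by distance, upstream solid and downstream dashed. Densities stay between 18.2 and 23.1 per Mb in every bar, while median heights of upstream sites in the nearest and the farthest band are 1.35 and 0.967 in replicate 1 and 0.998 and 0.814 in replicate 2.

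Chromosomes differed more than distances did. Among autosomes the density ran from 15.2 sites per Mb on chromosome 7 to 31.8 on chromosome 11. The X chromosome of these males had 6.43 per Mb, with median heights of 0.776 and 0.572, lower than on any autosome in either library. Own peaks on X came to 9.17 and 8.63 per Mb in the 2 libraries against at least 21.7 and 16.9 on each autosome. The Y held 4 sites.

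CTCF was the consensus that set these sites apart most from the genome. It was present within 100 bp of the centre, on either strand, in 1115 sites (14.6%, exact interval 13.8 to 15.4) and in 0.0932% of 200-bp tiles of the chromosomes, a ratio of 156. The share was 2.39% in promoter peaks, 9.05% within genes and 6.40% beyond 50 kb. Sites with the consensus were taller, with medians of 1.78 and 1.19 against 1.16 and 0.898 without it. Within height bands the share exceeded that of peaks within genes and beyond 50 kb in most bands, but not that of intergenic peaks under 5 kb. Among peaks of height 1 to 2 in replicate 1 the share was 15.3% of the sites, 9.79% within genes, 9.04% beyond 50 kb and 16.0% in intergenic DNA under 5 kb. In the same band of replicate 2 it was 20.7%, 13.9%, 12.8% and 21.2%. The peaks under 5 kb had the higher share in 5 of the 8 bands, the sites in the other 3. At a height of 2 and above in replicate 2 the sites (20.1%) and peaks within genes (20.8%) had like shares.

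**Figure D3:**
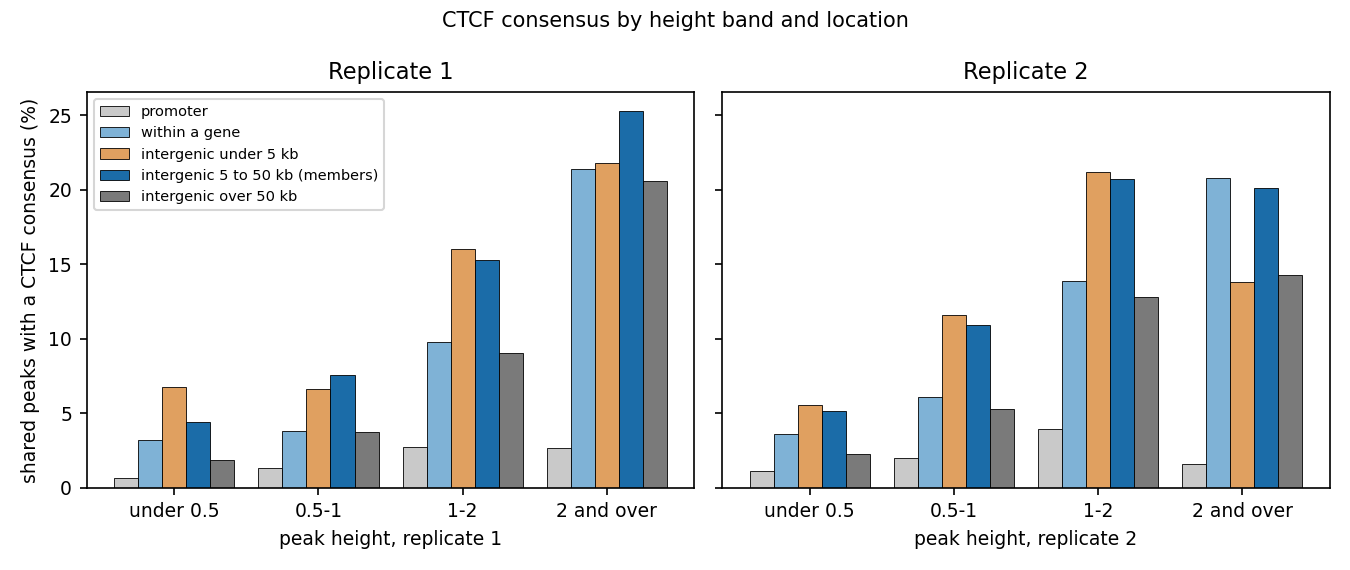
Percent of shared peaks with a CTCF consensus (y) by height band in replicate 1 (left) and replicate 2 (right), for promoter peaks, peaks within a gene, and intergenic peaks under 5 kb, at 5 to 50 kb (the sites) and beyond 50 kb. The sites have the highest bar in 2 of the 8 bands, such as 25.3% at height 2 and above in replicate 1, peaks under 5 kb have it in 5, and promoter peaks have the lowest in all 8.

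Footprints sat on CTCF matches with little offset. Of 1130 matches that lay inside the sites' peaks, 98.5% in replicate 1 and 92.8% in replicate 2 had at least 50% of their bases in a footprint, against 24.8% and 16.7% of all windows of that length in the sites. The median match lay 10 bp from the centre of its peak, and 83.5% lay within 25 bp. The footprint over a match had a median width of 34.0 bp in replicate 1 and 28.0 bp in replicate 2, against 11 and 10 bp for other footprints of the sites. The protection was lopsided, in a direction that changed with distance from the match. At 12 bp 5′ of the middle of the match 66.1% and 32.5% of matches were in a footprint. At 12 bp 3′ of it the shares were 91.7% and 78.5%. Farther out, at 19 bp, the order was reversed, with 60.6% and 43.1% on the 5′ side and 26.3% and 15.9% on the 3′ side.

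Own peaks with the consensus were also found more often in the other library. Of replicate 1 peaks in the same location class, 86.8% with a CTCF consensus and 64.9% without one overlapped a strict peak of replicate 2. In the opposite direction the shares were 94.0% and 81.3%. Within the height band 0.5 to 1 they were 66.3% and 53.9% for replicate 1 and 88.8% and 81.9% for replicate 2, and at a height of 2 and above the difference was nearly gone, 99.1% and 98.9% for replicate 1 and 100% and 99.3% for replicate 2.

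Footprints as a whole were common in the sites, as they were in all shared peaks. At least 1 overlapped 96.3% of the sites in replicate 1 (exact interval 95.8 to 96.7) and 92.0% in replicate 2 (91.3 to 92.6), 94.1% ± 3.05 (SD, n = 2). The shares were 93.8% and 88.7% of all shared peaks, 95.3% and 90.2% within genes, and 96.3% and 93.7% under 5 kb. They were lower at promoters (91.6% and 86.8%) and beyond 50 kb (92.7% and 85.8%). The mean number per site was 3.08 and 2.33, and footprints took up 22.1% and 14.7% of the bases. Both libraries had one in 6897 sites, and 145 sites had none. Single footprints recurred less than sites did: 48.0% of the 23402 footprints of replicate 1 overlapped one of the 17724 of replicate 2, and 69.4% in the other direction. The share with a footprint rose with height, from 74.9% of the sites under 0.5 to 100% at 2 and above in replicate 1.

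A group of 5 rarer consensus sequences was also mostly protected. Other rare words of like length, such as GAGGAAGTG and ATGCAAAT, were not, and their values are given further below. The NFI consensus, bound by factors active in glia and neurons, was in 32 sites, and 95.1% and 65.9% of its 41 matches lay in footprints. For RFX the values were 21 sites and 95.7% and 69.6% of 23 matches. The CRE, bound by CREB, was in 38 sites, with 90.2% and 75.6% of 41 matches protected. NRF1, a regulator of mitochondrial and housekeeping genes, was in 26 sites, with 91.1% and 77.8% of 45. The early growth response word GCGTGGGCG was in 14 sites, with 83.3% and 77.8% protected. For these 5 the matches are few, and replicate 2, which has fewer footprints everywhere, was lower each time.

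Short common words were frequent in the sites and less often protected. The proneural E-box CAGATGG was in 891 sites (11.6%, against 3.94% of tiles, 3.91% of promoter peaks, 12.9% of peaks within genes and 13.5% beyond 50 kb), and 51.3% and 42.2% of its matches lay in footprints, above the 22.8% and 15.2% of any window of that length. The AP-1 element TGACTCA, bound by FOS and JUN, was in 712 sites (9.30%, tiles 3.10%, within genes 10.9%, beyond 50 kb 11.8%), with 26.3% and 18.3% protected. Sites with AP-1 were lower than those without, at 1.05 and 0.837 against 1.25 and 0.945. The E-box CAGCTG was in 17.5% of the sites (tiles 7.14%, within genes 19.0%, beyond 50 kb 18.6%), with 35.4% and 23.7% protected. The word TGTTTAC of forkhead factors was rarer in the sites than in tiles, 1.99% and 3.0%, and its matches lay in footprints less often than other windows, 7.88% and 4.85%. The homeodomain core TAATTA was at 3.44% against 7.20% of tiles, with 13.7% and 6.12% protected. All words were searched on both strands, and CTCF, NFI and RFX are given by name because their consensus has ambiguous letters.

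A pair of words known from promoters was also protected in the sites. The GC box GGGCGGGG of SP and KLF factors was in 197 sites (2.57%, tiles 0.541%, promoter peaks 19.2%), with 65.8% and 43.8% of its matches in footprints. The word AAGATGGCG of YY1, a zinc finger factor, was in 27 sites, with 73.3% and 76.7% protected. Among the remaining words, ETS (CCGGAAGT) was in 24 sites, with 38.2% and 23.5% protected against 24.3% and 16.3% of any window. MEF2, SOX (ACAATGG), PU.1 (GAGGAAGTG), the octamer ATGCAAAT, T-box (AGGTGTGA), ROR (TAGGTCA), RUNX (TGTGGTT), TEAD (ACATTCCA) and the glucocorticoid element were protected in 11.1% to 23.9% of matches in replicate 1, near or below the value of other windows. In replicate 2 the range was 11.1% to 20.8%. There T-box (20.8% against 16.3%) and RUNX (18.4% against 15.2%) were above other windows, and the rest near or below them. The PAR bZIP word TTACGTAA was in 7 sites and the REST consensus in 1, too few to give a share.

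**Figure D4:**
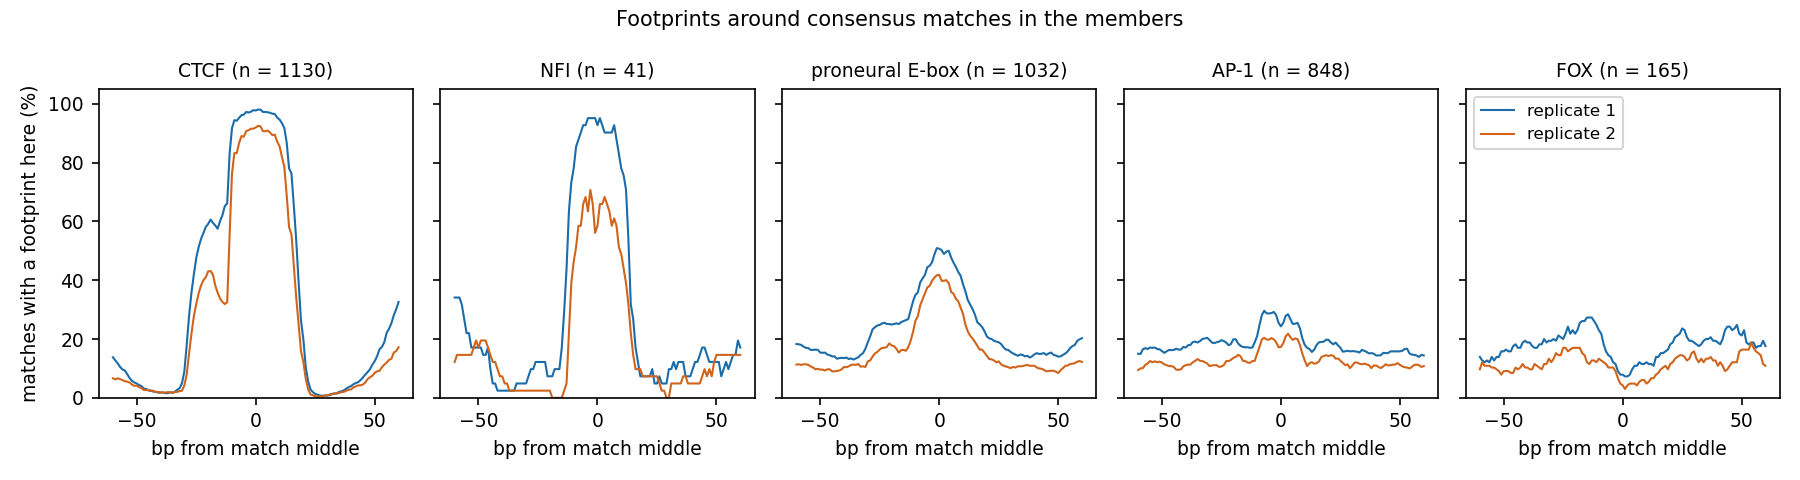
Percent of consensus matches in the sites with a footprint at each base (y), from 60 bp before to 60 bp after the middle of the match (x), in replicate 1 and replicate 2, for CTCF, NFI, the proneural E-box, AP-1 and the forkhead word. At the middle 97.7% and 91.9% of CTCF matches and 50.7% and 41.8% of E-box matches are covered, while the forkhead word sits in a dip at 7.88% and 4.24%.

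Most sites stood alone, and 6 of the 10 largest groups held tRNA genes. With neighbours joined when their centres were at most 5000 bp apart, 5178 sites were lone, 845 pairs formed, and 230 groups had 3 or more sites (786 sites in all). Sites in groups of 4 or more had medians of 1.61 and 1.18 and a CTCF consensus in 6.88%, against 1.20 and 0.914 and 15.6% for lone sites. The 2 largest groups had 8 sites each. One lay near Trim27, a ubiquitin ligase gene on chromosome 13 (21167501 to 21173340), and the other near the olfactory receptor gene Olfr1423 on chromosome 19 (12002221 to 12012520).

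The nuclear tRNA genes come from RefSeq, since the gene set behind the selection lists none, and they were examined after the groups had been seen. Of 403 tRNA genes on the chromosomes 172 had a centre in the distance range, and 110 of these (64.0%) lay under 1 of the sites. The 110 sites over them were 1.44% of the set, against 0.246% of promoter peaks, 0.0867% within genes, 0.0536% beyond 50 kb and 1.70% of the 1528 intergenic peaks under 5 kb. Their heights had medians of 2.78 and 2.18 against 1.22 and 0.929 for the other sites, with extremes of 0.576 and 8.67 in replicate 1 and 0.407 and 4.90 in replicate 2. Genes for 20 kinds of tRNA were among them, led by tRNA-Leu with 13 and tRNA-Arg with 10 sites. Only 1 of the 110 had a CTCF consensus, while 107 had a footprint in each library. Of the tRNA genes in range, 161 of 172 held the B box form shown above.

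Sites over tRNA genes were more often grouped than others. In groups of 3 or more were 73 of them (66.4%) and 9.45% of other sites, and these 73 were a minority of the 786 grouped sites. Of the 8 sites in the group near Olfr1423, 6 lay over tRNA genes, as did 4 of 8 near Trim27, 5 of 7 near Dhx37, 4 of 6 near Fcgr4, 3 of 6 near Shf and 5 of 6 near Hfe2. The groups near Nr1d1 and Msl1 (7 sites), Actg1 (6), Coro2b (6) and Ythdf1 (6) had none, and 2 of the Actg1 sites overlapped VISTA records. Sequences of several copies made up 6.36% of the tRNA gene sites and 1.29% of the others. Their part in the heights, and the part of the tRNA genes in the density of the groups, was not tested.

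By count of nearest sites the same places led. Trim27 had 12 sites, with heights from 0.638 to 4.89 in replicate 1 and 0.445 to 3.47 in replicate 2, and 7 lay over tRNA genes. Abt1 had 10, of which 8 did, and Gpx5 and Olfr1423 had 8 each, of which 5 and 6 did. The sites near Zfp706 (9), Ptma, Coro2b and Adgrb1 (8 each) and Fos (7) held no tRNA gene. Of the 7 near Shf, 3 did. Adgrb1 encodes an adhesion receptor of brain synapses, and its sites ran from 0.551 to 3.18 in replicate 1 and 0.660 to 2.29 in replicate 2.

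Around genes with an accessible promoter the sites were denser. Of the sites, 70.8% in replicate 1 and 65.6% in replicate 2 had a nearest coding gene with a promoter peak (68.2% ± 3.69, SD, n = 2), against 63.1% and 59.0% of all 21938 coding genes (61.0% ± 2.91). DNA nearest to genes with a promoter peak in both libraries held 25 sites per Mb, and DNA nearest to genes with none held 13.6. Own peaks gave the same order, with 37.2 and 19.3 per Mb in replicate 1 and 29.7 and 17.5 in replicate 2 for genes with and without a promoter peak in that library. The 1135 olfactory receptor genes, a family looked up afterwards, had 5.43 sites per Mb. Nearest by distance does not show which gene a site acts on: 58.5% of the sites had a noncoding start closer to them than the coding one.

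Immediate early genes, induced quickly when a neuron is active, had many sites around them. At least 1 site was nearest to 11 of the 19 (57.9%), all with eligible DNA, against 29.8% of coding genes with eligible DNA and 35.0% of those that also had a promoter peak in both libraries. There were 26 sites in all. Per Mb of eligible DNA around them this was 48.7 against 19.9, with own peaks at 71.2 and 52.5 per Mb in replicates 1 and 2 against 29.6 and 23.9. The sites had median heights of 2.27 and 1.33, above the 1.23 and 0.937 of the whole set. Fos alone held 7 of the 26.

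Fos encodes a subunit of AP-1, and its 7 sites lay 2 upstream and 5 downstream of the start. The tallest, whose sequence is given above, was 18539 bp upstream on chromosome 12 from 85455141 to 85455560, at 6.78 and 3.96 (5.37 ± 2.00, SD, n = 2) with 10 and 9 footprints. It overlapped the VISTA element mm260. The second tallest stood 12231 bp downstream at 3.51 and 2.61, with 7 and 8 footprints. The other 5 lay between 0.995 and 2.41 in replicate 1 and between 0.737 and 1.45 in replicate 2. The Fos promoter itself reached 3.39 and 1.86, so the far upstream site was taller than the promoter in both libraries.

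Npas4, a neuronal factor induced by depolarization, had 3 sites. A pair stood 11625 and 11965 bp upstream, at 4.71 and 3.98 and at 3.32 and 2.00, and the remaining one was 8358 bp downstream at 2.23 and 1.68. All 3 peaks of replicate 1 were taller than the Npas4 promoter peak (2.04), and in replicate 2 the promoter (1.69) fell between them. Egr1, a zinc finger factor gene, had 4 sites, the tallest 26334 bp downstream at 2.51 and 1.75, below its promoter at 6.65 and 3.85.

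Clock genes had a like density, 50.7 sites per Mb, from 18 sites near 8 of 17 genes. Own peaks around them came to 73.2 and 50.7 per Mb. The gene lists were not wholly separate, since 2 genes, Per1 and Ttr, were in several lists. Nr1d1, which encodes the repressor REV-ERB alpha, had 4 sites within 8158 bp upstream, part of the group of 7 shared with Msl1. The tallest was at 6.67 and 3.53, the next at 2.10 and 2.20, and the low ones at 0.983 and 0.960 and at 0.901 and 0.514. Only the upper pair had footprints, 4 each in both libraries. Hlf, a PAR bZIP factor gene, had 1 tall site 27196 bp upstream (5.96 and 3.49) beside 2 low ones of at most 0.570 and 0.514. Bhlhe40, a repressor gene of the clock, had 3 sites, from 1.53 to 2.46 in replicate 1 and 1.34 to 1.70 in replicate 2. The Nr1d1 promoter was taller than all of its sites, at 9.26 and 6.64. The word CACGTG, chosen after values were seen, was in 3 of the 18 clock sites and in 4.14% of all sites, against 1.92% of tiles, 7.24% of promoter peaks, 4.74% within genes and 3.49% beyond 50 kb.

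Inhibitory neuron genes had 15 sites near 8 of 16 genes (28.2 per Mb), pan-neuronal and synaptic genes 10 near 7 of 16 (27.4 per Mb), and neuronal transcription factor genes 25 near 13 of 26 (25.7 per Mb). Excitatory neuron genes had 7 sites (19.3 per Mb), deep-layer genes 7 (19.6) and upper-layer genes 2 (4.45). These last 3 rest on few sites. Own peaks of replicates 1 and 2 were far apart for upper-layer genes (40.1 and 8.90 per Mb) and excitatory neuron genes (49.6 and 19.3), and less so for deep-layer genes (44.9 and 30.9). The neuropeptide gene Cck had 4 sites, from 1.15 to 2.03 in replicate 1 and 1.08 to 1.67 in replicate 2. Neurod2, a proneural factor gene of excitatory neurons, had 3, led by one 8943 bp upstream at 1.90 and 1.91. The somatostatin gene Sst had 2 sites, while no strict peak of either library lay at its promoter. The site 8103 bp upstream, at 3.02 and 1.50, was the taller in replicate 1 but the lower in replicate 2, where the other reached 1.60.

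Some sites near glial genes were tall and others low, such as the one near the precursor gene Ptprz1 (0.576 and 0.422). Oligodendrocyte genes had 4 sites near 4 of 14 genes (15.4 per Mb), their precursors 4 near 3 of 9 (42.5 per Mb) and astrocyte genes 5 near 3 of 14 (13.3 per Mb, own peaks 29.2 and 18.6). Microglial genes had 8 near 5 of 15 (32.4 per Mb), and endothelial genes 8 near 6 of 14 (17.2 per Mb, own peaks 36.6 and 17.2). Median heights were 2.67 and 1.72 for oligodendrocyte genes, 1.33 and 1.11 for their precursors and 1.59 and 1.34 for astrocyte genes. They were 1.40 and 1.06 for microglial and 0.948 and 0.726 for endothelial genes, against 1.23 and 0.937 for the whole set. The site 5343 bp upstream of Mog, the myelin oligodendrocyte glycoprotein gene, stood at 5.78 and 3.27 with 5 footprints in each library, and Mog had no promoter peak in either. The myelin genes Mobp (2.72 and 1.86) and Cldn11 (2.62 and 1.57) had 1 site each and no promoter peak. Of the 14 oligodendrocyte genes, 6 and 5 had a promoter peak in replicates 1 and 2. Gja1, the astrocyte connexin gene, had 2 sites, the taller 38049 bp upstream at 2.71 and 1.46. Mural cell genes, which mark pericytes and vascular muscle, had no site near any of 9 genes, in only 0.136 Mb of eligible DNA. Own peaks there came to 0 and 7.36 per Mb.

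Lists for other tissues were not empty. Liver genes had 3 sites near 2 of 14 genes (12.8 per Mb), at most 0.701 and 0.514 high, and Hox genes 4 near 2 of 15 (40.2 per Mb in 0.0995 Mb). Lymphoid genes had 4 near 2 of 14 (33.9 per Mb), germ cell genes 4 near 3 of 12 (20.5 per Mb), and genes of meninges and choroid plexus 7 near 5 of 13 (17.2 per Mb). Housekeeping genes, all 16 with a promoter peak in both libraries, had 7 near 4 (31.5 per Mb). Striated muscle genes had 8 sites near 5 of 14 (49.4 per Mb), as dense as the immediate early genes, though over 0.162 Mb of eligible DNA. Among them the site 11850 bp upstream of Myl2, a cardiac myosin light chain gene, stood at 3.55 and 1.83. The Kcne2 site in the choroid plexus list was at 3.82 and 1.86, and the Zap70 site in the lymphoid list at 2.87 and 1.99. The plot of sites by gene list shows that a list's density can rest on a handful of sites.

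**Figure D5:**
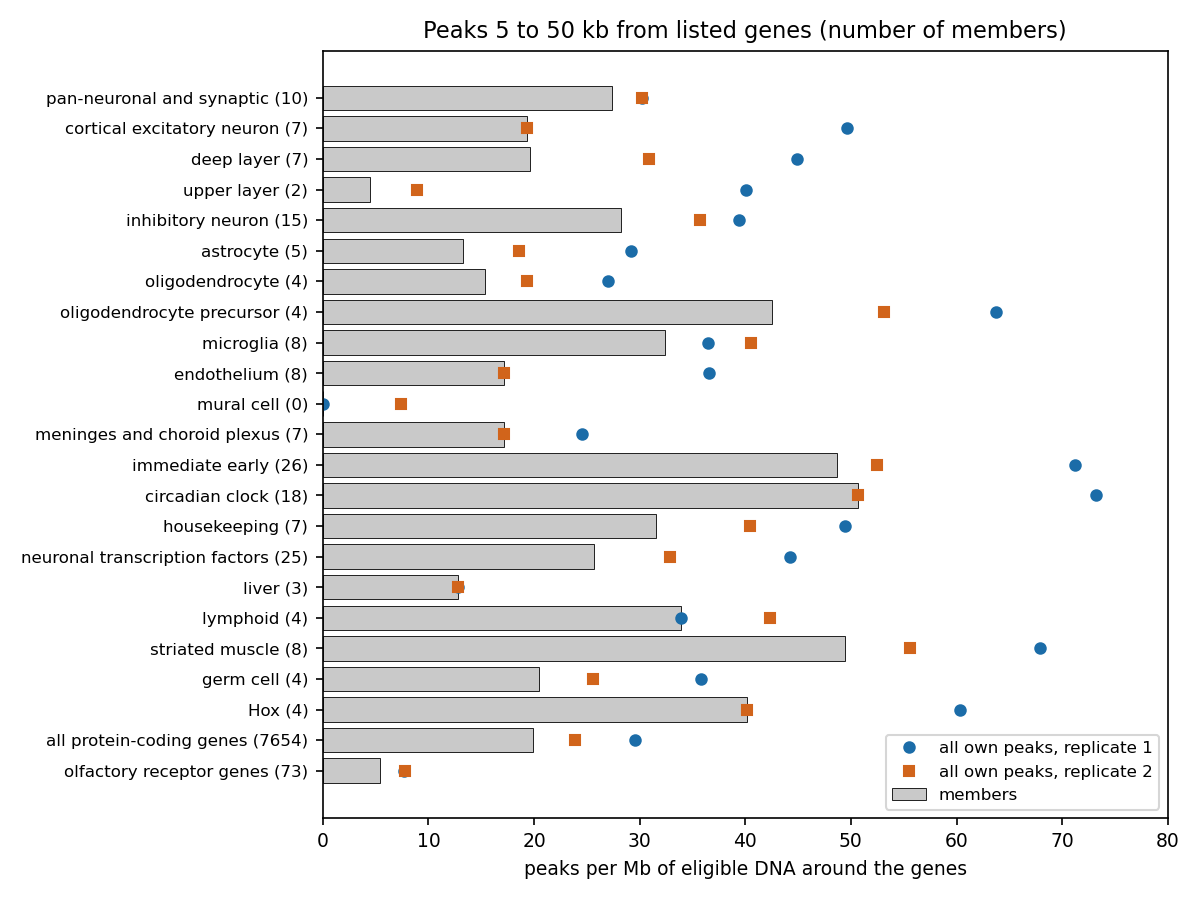
Sites per Mb of eligible DNA nearest to the genes of each list (bars, number of sites in brackets), with all own strict peaks of replicate 1 (circles) and replicate 2 (squares). Immediate early and clock genes stand at 48.7 and 50.7 sites per Mb from 26 and 18 sites, against 19.9 for all coding genes, and both libraries place them above their own genome values of 29.6 and 23.9.

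Records of tested enhancers were few but overlapped tall sites. RefSeq holds 620 VISTA enhancer records on the chromosomes, of which 111 had a centre in the distance range, and 28 lay under at least 1 of 35 sites. The share of the sites over such a record was 0.457%, against 0.443% of shared peaks within genes, 0.375% beyond 50 kb, 0.262% in intergenic DNA under 5 kb and 0.112% at promoters. Medians of the 35 were 2.11 and 1.42 against 1.23 and 0.937 for the rest. Besides those near Bhlhe41 and Fos, tall ones lay near Ly86 (mm979, 4.81 and 3.13) and the actin gene Actg1 (mm1481, 3.98 and 2.51). The RFX site near Gng2, printed above, lay in mm1498, at 3.73 and 2.15. These records were looked up after the values were known, and they describe embryos, not adult cortex.

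The accessible stretch around a site was short. Bases listed at a false discovery rate under 0.05 covered 100% and 99.9% of site centres in replicates 1 and 2, 49.5% and 37.4% of positions 200 bp away, and 13.9% and 9.11% of those 500 bp away. For promoter peaks 55.7% and 44.9% of positions 500 bp away were listed. Peaks within genes (13.5% and 9.28%) and beyond 50 kb (14.1% and 10.3%) were like the sites at that distance. Intergenic peaks under 5 kb were somewhat higher (19.5% and 14.5%), so a short stretch was not particular to the sites. The 3 widest sites were near Sox4 (1160 bp, 1.39 and 0.875), Rhcg (880 bp, 1.50 and 0.791) and Med13l (860 bp, 1.30 and 0.745), and none of them was tall.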

How the data were processed

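DNase-seq libraries of 2 right cerebral cortices were analysed from the authors' deposited peaks, per-base false discovery rates and footprints (mm10, per the labels). No aligner, caller or depth is stated here, being not given in the sources used here. Peak heights are the signal the authors deposited, with scaling not stated. The deposited q-value per base is listed under 0.05. Footprints, deposited with 0.01 in every row (taken as a p-value limit), are used by position only. All peaks lay within GRCm38.p6. Genes came from GENCODE M21, tRNA genes, enhancer records and transcript starts used beside it from RefSeq for that assembly.

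Overlap meant at least 1 bp. To count sites, motifs were searched on both strands in 200 bp around the replicate 1 peak centre. Matches scored for footprints were those inside the whole peaks of all sites, so site and match counts need not correspond. A match was in a footprint when at least 50% of its bases were. Copy number is the median genome count of 3 words of 31 bases. Named sites and genes are the 15 tallest single-copy sites, the 10 coding genes with most sites, up to 3 genes of each of 21 lists, the tallest sites for each of 25 consensus sequences, the 3 highest and 3 lowest ratios and the 3 widest. A few of these sites and genes are not reported here. The dense groups, tRNA genes, VISTA sites, RefSeq starts, the limits for CpG-rich sites, olfactory receptors and the word CACGTG were chosen after values were seen. The sites and lists were chosen with earlier results of these data known. Overlap, location, motif and copy counts were tested on simulated data. Intervals are exact binomial ones and cover counting error only. No p-value was computed, since there was 1 group. Work was done in Python 3.11.15 with numpy 2.4.6, pandas 2.3.3, scipy 1.17.1 and numba 0.67.0. Alternatives covered the overlap, peak set, height, gene set, distance range, motif pattern and each library left out.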

Additional observations from a re-analysis of the deposited data

How the results depend on the processing

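The 7 values compared were the number of sites (7654), their median height (1.08), density (19.9 per Mb), share with a footprint (94.1%), share with a CTCF consensus (14.6%), share whose nearest coding gene has a promoter peak (68.2%) and median repeat share (3.32%). With at least 50% of the peak covered, the CTCF share was 16.0% and the repeat share 2.11%. With the larger deposited peak sets there were 12642 sites, with a median height of 0.757, 32.9 per Mb, 84.8% with a footprint, 10.6% with CTCF, 74.7% with a promoter peak at the nearest gene and a repeat share of 6.05%. With peaks at or above the library median the values were 4244 sites, height 1.57, 11 per Mb, 99.0% with a footprint and 19.6% with CTCF. A looser CTCF pattern gave 21.6%. With each library alone, where no overlap was asked, the ranges were 9197 to 11358 sites, height 0.829 to 0.932, 23.9 to 29.6 per Mb, footprints 87.9% to 90.5%, CTCF 11.3% to 13%, promoter peaks 65.3% to 72.0% and repeats 0 to 1.00%. These settings change the set of peaks or the pattern by construction. The other alternatives, which were coding genes only, a minimum distance of 10000 bp, a 400 bp motif window, a 2500 bp promoter window, footprints wholly inside the peak and, added after seeing the data, starts of every transcript of a coding gene, left the number of sites within 1.5 times and the other values within 1 SD between libraries or, for CTCF, within its interval. No paired analysis was possible because there is a single group. Unknown depth leaves the precision of single heights unknown.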
